A study of Mus musculus with 9 samples.

Results

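The MS4A family (membrane-spanning 4-domains, subfamily A) was examined through 8 of its mouse genes, Ms4a1, Ms4a4a, Ms4a4b, Ms4a4c, Ms4a6b, Ms4a6c, Ms4a6d and Ms4a7. They were chosen by symbol from the 18639 genes of each library, as family genes of macrophages and lymphocytes, and all 8 had a value in all 9 libraries. Of them, 7 reached 1 TPM in 3 or more libraries and entered the test across 13829 genes, and Ms4a1 did not. The libraries were bulk RNA sequencing of tumour tissue from mouse brains, taken on day 5 after resection of tumours of CT2A, a mouse glioma cell line. The ThTC group was given cells that secrete interferon-beta and GM-CSF, described in the series title as CT2A cells, the GFP-TC group was given control cells, and the third group was given sECM only. Each group held 3 libraries, all groups had wild-type CT2A tumours that were resected, and the labels give no strain, age or number of animals. TPM is a relative transcript level that takes account of gene length and of the library total. Nothing in the labels ties each library to its own animal, so the tests measure the spread between libraries, which may be technical.

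MS4A proteins cross the membrane 4 times and are found at the surface of leukocytes, where several act as partners of signalling receptors. The best known is CD20, the product of Ms4a1, a B cell surface protein and the target of therapeutic antibodies. Mouse Ms4a4b is a T cell gene whose protein binds the co-stimulatory receptor GITR. Ms4a6c, Ms4a6d, Ms4a4a and Ms4a7 are used as genes of monocytes and macrophages, and Ms4a7 is known in the brain for marking macrophages other than microglia. Ms4a6b is not assigned to a single cell type here. In humans, variants near MS4A4A and MS4A6A are linked to Alzheimer's disease and to the level of soluble TREM2, a receptor of macrophages and microglia.

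The tissue held leukocytes and brain cells in amounts that differed between libraries. The library GFP-TC 1 stood apart, with the lowest summed TPM of all 9 libraries for the lists of macrophage, microglia, T cell, NK cell, dendritic cell and pan-leukocyte genes. The 16 monocyte and macrophage genes summed to 4277 to 6352 TPM in ThTC libraries, to 1825 TPM in GFP-TC 1 against 3389 and 4608 TPM in the other GFP-TC libraries, and to 3263 to 4143 TPM in sECM only libraries. The 8 neuron genes were highest in ThTC 3 at 1664 TPM and GFP-TC 3 at 1472 TPM, and lowest in GFP-TC 1 at 101 TPM. In bulk tissue, fewer cells of a type and less RNA per cell cannot be told apart. For this reason the main values that involve GFP-TC are also given without GFP-TC 1 where it moves them.

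All 8 genes lie in a single cluster on chromosome 19. In the RefSeq table of GRCm38.p6 they run from Ms4a1 (chr19:11249679-11266149, minus strand) over Ms4a7 (chr19:11321039-11336146, minus strand), Ms4a4a (chr19:11375488-11392915, plus strand) and Ms4a4c (chr19:11404717-11427246, plus strand) to the second part of the cluster. That part holds Ms4a4b (chr19:11443558-11463549, plus strand), Ms4a6c (chr19:11469353-11487182, plus strand), Ms4a6b (chr19:11518559-11530403, plus strand) and Ms4a6d (chr19:11586606-11604804, minus strand). The 8 genes span 355 kb, and the table names 21 Ms4a genes on this chromosome, of which 14 were measured.

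Some neighbours are near copies. The coding sequences of Ms4a4b and Ms4a4c were 91.7% identical and those of Ms4a6b and Ms4a6d 80.2%, computed from GENCODE transcripts on GRCm38. Ms4a6b and Ms4a6c were 75.6% identical and Ms4a6c and Ms4a6d 68.3%, while Ms4a1 was 44.3% to 48.4% identical to the others. The first 120 coding bases of the closest pairs are shown because reads from such stretches can be shared between genes. Capitals mark the bases that differ within a pair, 9 in the first pair and 10 in the second.

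Ms4a4b: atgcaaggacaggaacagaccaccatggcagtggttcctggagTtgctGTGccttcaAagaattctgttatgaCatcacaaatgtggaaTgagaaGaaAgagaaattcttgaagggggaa
Ms4a4c: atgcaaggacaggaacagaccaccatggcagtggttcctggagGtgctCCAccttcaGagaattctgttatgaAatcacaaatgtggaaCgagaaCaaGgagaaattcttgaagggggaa
Ms4a6b: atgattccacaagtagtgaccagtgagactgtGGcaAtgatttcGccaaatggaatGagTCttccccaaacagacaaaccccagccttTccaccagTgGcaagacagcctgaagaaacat
Ms4a6d: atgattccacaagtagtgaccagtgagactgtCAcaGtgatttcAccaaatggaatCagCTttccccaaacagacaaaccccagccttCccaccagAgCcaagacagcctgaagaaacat

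Exact stretches of 50 bases shared with another Ms4a gene made up 8.19% of the transcript windows of Ms4a4c and 5.85% of those of Ms4a6c. They made up 3.44% for Ms4a6b, 2.31% for Ms4a6d and 2.24% for Ms4a4b, and 0% for Ms4a1, Ms4a4a and Ms4a7. Levels of the genes with shared stretches are uncertain to the extent that the submitters' counting could split such reads.

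The likeness of Ms4a4b and Ms4a4c went beyond the coding sequence. Their RefSeq promoters ran from 250 bases before to 50 after a transcript start listed for the gene. Aligned from end to end, these were 72.9% identical, against 51.2% for the next closest pair by this measure, Ms4a6b and Ms4a6c. Bases without a partner counted as not identical. The windows of Ms4a6b and Ms4a6c share stretches at shifted positions, so 51.2% understates their likeness. The window of Ms4a4c belongs to a start inside the gene span given above. The windows chr19:11443308-11443607 and chr19:11407411-11407710, both on the plus strand of GRCm38.p6, are shown with capitals for the 74 bases in each that have no identical partner.

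Ms4a4b: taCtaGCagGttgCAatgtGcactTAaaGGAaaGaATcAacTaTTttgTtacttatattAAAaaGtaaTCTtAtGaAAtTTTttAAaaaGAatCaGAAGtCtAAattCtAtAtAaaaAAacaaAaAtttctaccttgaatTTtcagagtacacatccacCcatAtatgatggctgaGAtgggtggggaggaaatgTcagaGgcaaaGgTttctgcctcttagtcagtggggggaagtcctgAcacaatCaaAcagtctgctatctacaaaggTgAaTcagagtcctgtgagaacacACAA
Ms4a4c: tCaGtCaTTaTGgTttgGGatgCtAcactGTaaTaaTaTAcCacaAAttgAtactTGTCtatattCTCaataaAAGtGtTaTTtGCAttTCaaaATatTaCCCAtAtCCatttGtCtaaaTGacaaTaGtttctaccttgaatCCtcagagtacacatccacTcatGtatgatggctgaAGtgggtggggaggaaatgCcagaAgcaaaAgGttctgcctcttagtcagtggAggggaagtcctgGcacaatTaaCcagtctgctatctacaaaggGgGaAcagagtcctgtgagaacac

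The capitals gathered in the first 150 bases of the windows, with 56 in Ms4a4b and 59 in Ms4a4c, against 18 in Ms4a4b and 15 in Ms4a4c in the last 150 bases, which hold the listed start. A promoter was found for 6 of the 8 genes, in 7 windows, and Ms4a1 and Ms4a6d had no entry. On both strands, 0 windows held the core of the interferon-stimulated response element (GAAA, any 2 bases, GAAA), the gamma-activated site TTCNNNGAA or GAGGAAG, a longer form of the PU.1 core. Of all 32851 promoters in the table, 3.44%, 8.30% and 13.6% held the first, the second and the third motif. The letters searched for were not in these windows, which says nothing of sites elsewhere. The shorter GAGGAA was not part of the search, and it stands in the windows of Ms4a4b and Ms4a4c shown above and in a window of Ms4a7. The windows of Ms4a6b and Ms4a6c hold GAAAGTGAAC, which differs from the first motif in its last base. Near forms of the motifs were not searched for in these or other promoters.

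Expression of the 8 genes spanned a wide range in this tissue. Over the 9 libraries, mean levels per length were 72.0 TPM for Ms4a6d, 68.1 TPM for Ms4a6c, 52.3 TPM for Ms4a7, 35.8 TPM for Ms4a4c and 33.7 TPM for Ms4a6b. Ms4a4b averaged 15.6 TPM, Ms4a4a 12.6 TPM and Ms4a1 0.482 TPM. Ms4a6d and Ms4a6c did not differ beyond their spread, since Ms4a6d was above Ms4a6c in 5 of 9 libraries, and Ms4a4b was above Ms4a4a in 6 of 9. Ms4a6c was above Ms4a7 in 8 libraries, Ms4a4c above Ms4a6b in 8, and every other neighbour in this order was above the next in 9 of 9 libraries. Summed over the 8 genes, the level was 325, 449 and 398 TPM in the ThTC libraries, 155, 242 and 295 TPM in the GFP-TC libraries and 259, 194 and 298 TPM in the sECM only libraries. The 3 ThTC sums lay above all other sums.

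**Figure D1:**
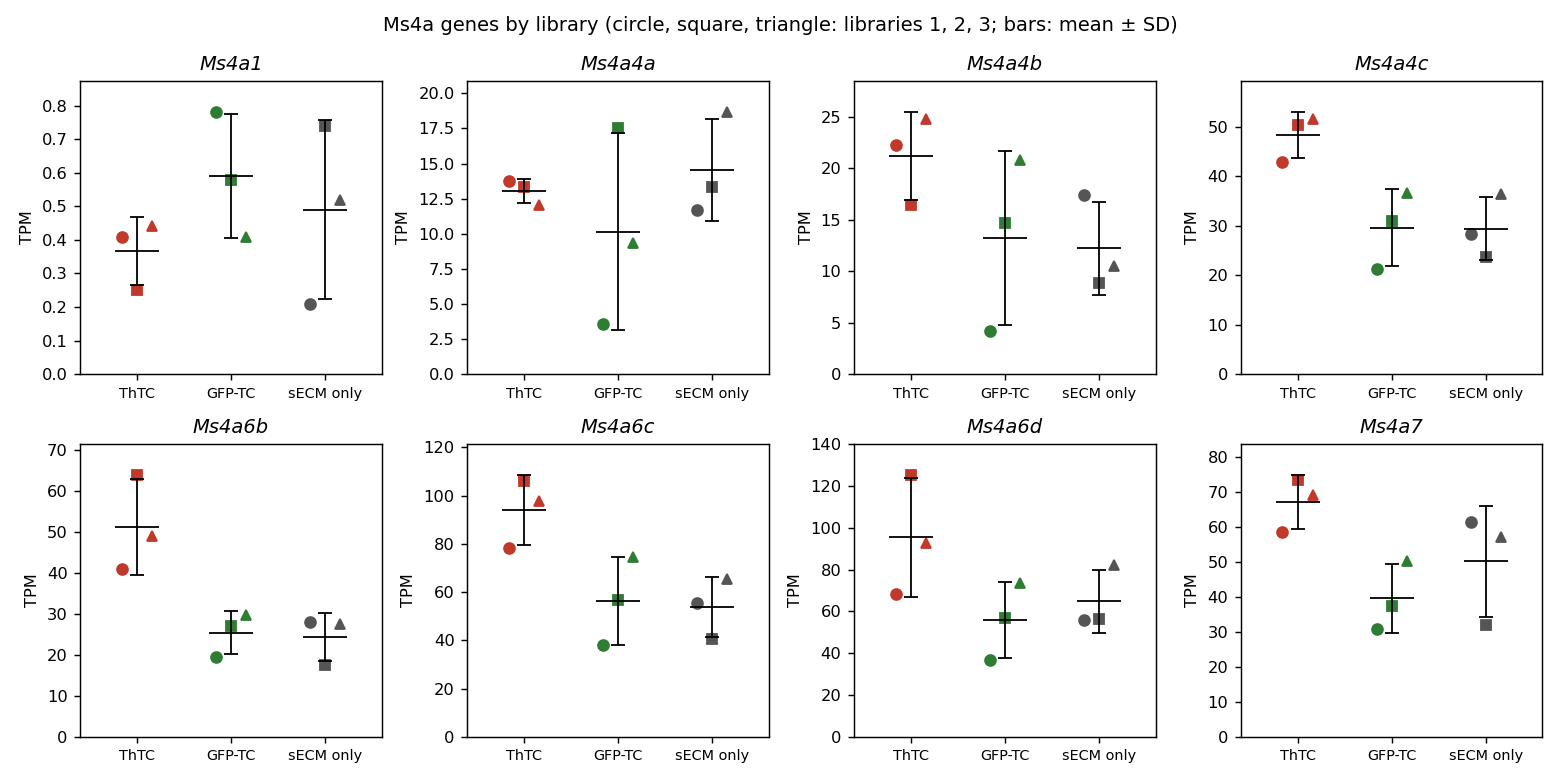
TPM of the 8 Ms4a genes by group, with 1 point per library and bars for the mean ± SD (n = 3). The ThTC libraries of Ms4a4c, Ms4a6b and Ms4a6c lie above all libraries of the other groups. Those of Ms4a1, Ms4a4a, Ms4a4b and Ms4a6d overlap both.

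The comparison of ThTC with GFP-TC sets tissue given the secreting cells against tissue given the control cells. All 7 tested genes had higher mean log2 levels in ThTC, with a median log2 fold change of 0.77, against -0.10 over all tested genes, of which 33.8% were higher. Without GFP-TC 1 the median of the 7 was 0.51. The libraries did not overlap for 4 of them, Ms4a4c, Ms4a6b, Ms4a6c and Ms4a7, where 2.2% of all tested genes were higher and 16.9% lower without overlap. Unadjusted p-values under 0.05 were found for 5, where 2.03% of tested genes had one in that direction and 12.9% in the other, but 0 of the 7 passed after adjustment over all genes, as did 0% of all tested genes (limma, Benjamini-Hochberg, threshold 0.05). With a block for the replicate number in these 6 libraries, 8 genes were called (0.0578%) and 0 of them were Ms4a genes.

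The comparison of ThTC with sECM only gave higher mean log2 levels in ThTC for 6 of the 7 genes, where 44.4% of tested genes were higher. The median log2 fold change was 0.71, against -0.03 over all tested genes. The libraries did not overlap for 3 of the 7, Ms4a4c, Ms4a6b and Ms4a6c, where 5.03% of tested genes were higher and 12.1% lower without overlap. The same 3 genes had unadjusted p-values under 0.05, as did 1.54% of tested genes in that direction and 5.36% in the other. After adjustment 0 of the 7 and 0% of all genes passed in limma. The comparisons with ThTC share its libraries, so the second does not repeat the first independently.

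GFP-TC and sECM only overlapped for all 7 genes, where 3.15% of tested genes were higher and 1.08% lower without overlap. The median log2 fold change of GFP-TC over sECM only was -0.07, with 2 of 7 higher, where the median of all tested genes was 0.08 and 71.8% were higher. Without GFP-TC 1 the median of the 7 was 0.21, and without GFP-TC 3 it was -0.47, so its direction rested on single libraries. In limma, 0 of the 7 had an unadjusted p under 0.05, against 0.499% of tested genes higher and 0.434% lower, and 0% passed after adjustment.

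**Figure D2:**
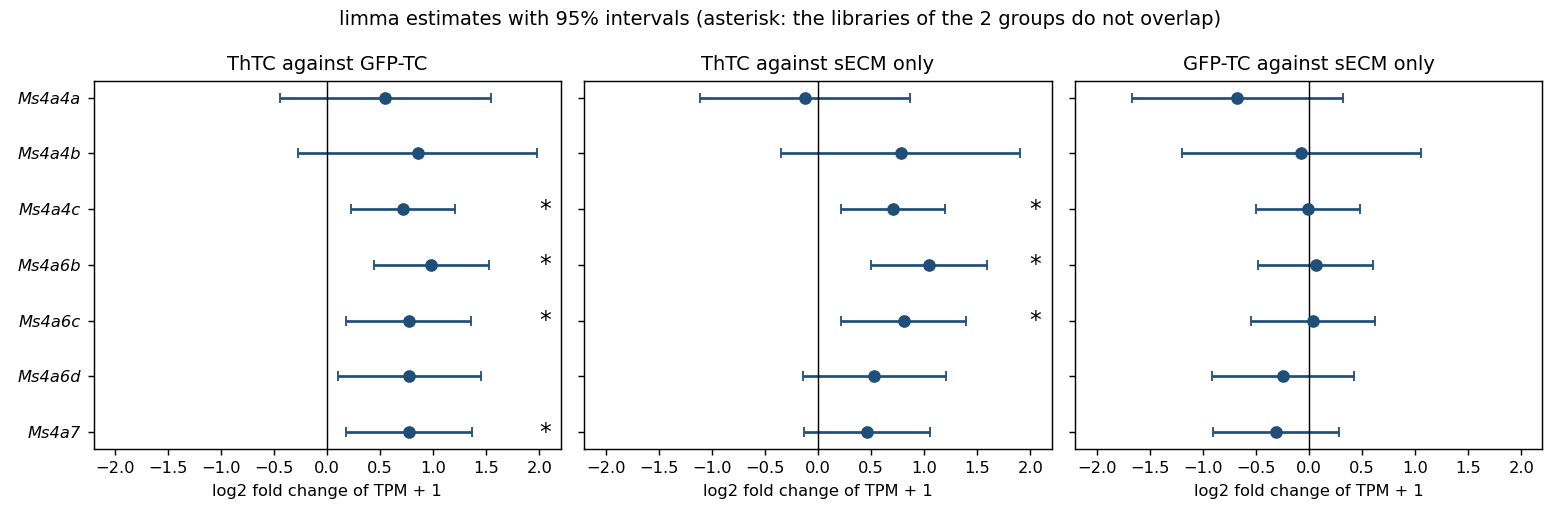
Log2 fold change of TPM + 1 from limma for the 7 tested genes in 3 comparisons, the first-named group over the second, with 95% intervals before adjustment over genes. The intervals of Ms4a4c, Ms4a6b and Ms4a6c lie above 0 in both comparisons of ThTC, and all intervals of GFP-TC against sECM only span 0.

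Among the 7 tested Ms4a genes, Ms4a6b had the largest log2 fold change of ThTC over each other group. It measured 41.0, 63.9 and 49.0 TPM in ThTC libraries, 19.5, 27.0 and 29.8 TPM in GFP-TC libraries and 28.1, 17.6 and 27.6 TPM in sECM only libraries. Every ThTC library was above every other library, and the GFP-TC and sECM only libraries covered about the same range. Group means were 51.3 ± 11.7 TPM in ThTC, 25.4 ± 5.31 TPM in GFP-TC and 24.4 ± 5.90 TPM in sECM only (SD, n = 3 each). The log2 fold change was 0.98 ± 0.24 (SE) over GFP-TC (limma adjusted p = 0.316, unadjusted p = 0.00292). Over sECM only it was 1.05 ± 0.24 (limma adjusted p = 0.687, unadjusted p = 0.00199), which ranked 22 among the 13829 genes by p. Over libraries left out in turn these fold changes ranged from 0.81 to 1.13 and from 0.84 to 1.19. With the replicate block, the adjusted limma p of Ms4a6b against GFP-TC was 0.0569.

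Ms4a6c, a gene often used for mouse monocytes, had 78.1, 106 and 97.8 TPM in ThTC libraries. It had 37.9, 56.6 and 74.4 TPM in GFP-TC libraries and 55.6, 40.7 and 65.3 TPM in sECM only libraries. The ThTC libraries again lay above all others, with a gap of a few TPM between the lowest ThTC library and the highest GFP-TC library. Log2 fold changes of ThTC were 0.77 ± 0.26 over GFP-TC (limma adjusted p = 0.316) and 0.81 ± 0.26 over sECM only (limma adjusted p = 0.687). Without GFP-TC 1 the first was 0.52.

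Ms4a6d, whose mouse protein is found on macrophages, had the highest mean of the 8 genes over the 9 libraries and the largest SD relative to its mean within ThTC among these 8. It had 68.1, 125 and 92.8 TPM in ThTC libraries, 37.0, 56.8 and 73.4 TPM in GFP-TC libraries and 55.7, 56.6 and 82.1 TPM in sECM only libraries. The lowest ThTC library lay within the range of both other groups. The log2 fold changes were 0.78 ± 0.29 over GFP-TC (limma adjusted p = 0.316) and 0.53 ± 0.29 over sECM only (limma adjusted p = 0.687). The first was 0.51 without GFP-TC 1, and the second was 0.31 without ThTC 2.

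Ms4a4c, the near copy of Ms4a4b, had the smallest relative spread within ThTC of the genes whose groups did not overlap. Its levels were 43.0, 50.4 and 51.6 TPM in ThTC libraries, 21.2, 31.1 and 36.6 TPM in GFP-TC libraries and 28.3, 23.8 and 36.4 TPM in sECM only libraries. All ThTC libraries were higher than all others. The log2 fold changes were 0.72 ± 0.21 over GFP-TC and 0.71 ± 0.21 over sECM only (limma adjusted p = 0.316 and 0.687), and -0.01 for GFP-TC over sECM only. Without GFP-TC 1, the first was 0.50 and the last was 0.21.

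Ms4a7, the gene of macrophages other than microglia, separated ThTC from GFP-TC only. It had 58.6, 73.6 and 69.3 TPM in ThTC libraries, 30.9, 37.5 and 50.4 TPM in GFP-TC libraries and 61.6, 32.1 and 57.1 TPM in sECM only libraries. The library sECM only 1 was higher than the lowest ThTC library, and the other sECM only libraries were not. The log2 fold changes of ThTC were 0.77 ± 0.26 over GFP-TC (limma adjusted p = 0.316) and 0.46 ± 0.26 over sECM only (limma adjusted p = 0.687), and that of GFP-TC over sECM only was -0.31 ± 0.26. The fold change of ThTC over GFP-TC was 0.61 without GFP-TC 1. Without sECM only 2, the fold change of ThTC over sECM only was 0.17 and that of GFP-TC over sECM only was -0.60, and without sECM only 1 the last was -0.14. These comparisons share libraries, and whether the fold changes over GFP-TC and over sECM only differ was not tested apart from the value of GFP-TC over sECM only.

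Ms4a4a, whose human protein marks alternatively activated macrophages and binds dectin-1, had a pattern of its own by value. It measured 13.7, 13.3 and 12.1 TPM in ThTC libraries, 3.60, 17.6 and 9.31 TPM in GFP-TC libraries and 11.7, 13.3 and 18.6 TPM in sECM only libraries. The ThTC libraries were close together and lay within the range of both other groups. The log2 fold change of ThTC was 0.55 ± 0.43 over GFP-TC (95% interval -0.44 to 1.54, limma adjusted p = 0.551) and -0.12 ± 0.43 over sECM only (95% interval -1.12 to 0.87, limma adjusted p = 0.932). Without GFP-TC 1, the first was 0.02.

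Ms4a4b, the T cell member, had its lowest value in GFP-TC 1. It measured 22.3, 16.5 and 24.8 TPM in ThTC libraries, 4.19, 14.7 and 20.9 TPM in GFP-TC libraries and 17.4, 8.83 and 10.5 TPM in sECM only libraries. The lowest ThTC library lay below the highest library of each other group. Log2 fold changes were 0.85 ± 0.49 over GFP-TC (limma adjusted p = 0.416) and 0.78 ± 0.49 over sECM only (limma adjusted p = 0.705), and the first was 0.24 without GFP-TC 1. The 14 T cell genes had a median log2 fold change of 1.05 over GFP-TC, or 0.30 without GFP-TC 1, and 0.85 over sECM only, or 0.55 without sECM only 2, with 0 called.

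Ms4a1, the B cell member, was near the lower end of detection in every group. It had 0.410, 0.250 and 0.440 TPM in ThTC libraries, 0.780, 0.580 and 0.410 TPM in GFP-TC libraries and 0.210, 0.740 and 0.520 TPM in sECM only libraries. The groups overlapped. In exact two-sided permutation tests, ThTC set against GFP-TC gave p = 0.3, and set against sECM only it gave p = 0.5. The exact permutation p between GFP-TC and sECM only was 0.6, and the smallest that 3 against 3 libraries allow is 0.1. The 12 B cell genes summed to 14.9 to 21.2 TPM in ThTC, 16.7 to 21.7 TPM in GFP-TC and 18.2 to 21.3 TPM in sECM only, with 0 of them at 0 in every library of a group.

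Outside the 8 genes, 6 further Ms4a genes were measured, all at low levels. Ms4a4d had 2.18, 3.32 and 4.14 TPM in ThTC libraries, 0.450, 1.25 and 2.86 TPM in GFP-TC libraries and 1.73, 0.150 and 1.08 TPM in sECM only libraries. Ms4a8a, known from mouse tumour-associated macrophages, had 1.21, 2.73 and 1.41 TPM in ThTC libraries, 0.410, 1.15 and 1.28 TPM in GFP-TC libraries and 0.830, 0.620 and 0.570 TPM in sECM only libraries. For both genes the ThTC libraries lay above all sECM only libraries, as they did for 5.03% of all tested genes, and overlapped GFP-TC. Their log2 fold changes over sECM only were 1.14 ± 0.44 and 0.70 ± 0.29, with an adjusted limma p of 0.687 for each. Ms4a14 lay between 0.68 and 2.32 TPM, with overlap of all groups. Ms4a2, the beta chain of the IgE receptor of mast cells, reached at most 0.69 TPM, Ms4a3 was listed at 0 in all 9 libraries, and Ms4a12 was listed at 0 in 8.

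Genes for known partners of MS4A proteins were also higher in ThTC by value. Of 8 such genes, 8 had higher mean log2 levels than in GFP-TC (median log2 fold change 0.90, or 0.43 without GFP-TC 1) and 7 had higher levels than in sECM only (0.54), with 0 called. Of all tested genes, 33.8% and 44.4% were higher, and 0% were called. The rise was not particular to partners, since T cell and NK cell genes had medians of 1.05 and 0.98 over GFP-TC (0.30 and 0.37 without GFP-TC 1). Tyrobp, the adaptor DAP12, had 399, 622 and 562 TPM in ThTC libraries, 167, 244 and 327 TPM in GFP-TC libraries and 341, 262 and 248.6 TPM in sECM only libraries. Trem2, the receptor that signals through this adaptor, had 69.4, 108 and 128 TPM in ThTC libraries, 25.3, 47.4 and 72.2 TPM in GFP-TC libraries and 68.7, 58.0 and 42.2 TPM in sECM only libraries. The ThTC libraries of Tyrobp lay above all others, and those of Trem2 above sECM only, with overlap against GFP-TC. Of all tested genes, 2.2% were higher without overlap against GFP-TC and 5.03% against sECM only. Clec7a, which encodes dectin-1, had 70.2, 50.2 and 44.6 TPM in ThTC libraries, 14.2, 42.7 and 33.2 TPM in GFP-TC libraries and 48.8, 82.6 and 62.9 TPM in sECM only libraries. Its GFP-TC libraries were below all libraries of the other groups, a pattern that 1.08% of tested genes showed against sECM only. Its log2 fold change of GFP-TC over sECM only was -1.18 ± 0.38 (limma adjusted p = 0.997), and -0.73 without GFP-TC 1.

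Most macrophage genes and the pan-leukocyte genes were higher in ThTC by value too, with 0 called. Over sECM only, 14 of the 15 tested macrophage genes were higher, where 44.4% of all tested genes were, and Mrc1 was lower. Mrc1 had 8.76, 2.98 and 4.15 TPM in ThTC libraries and 8.35, 12.9 and 18.4 TPM in sECM only libraries, with overlap. The median log2 fold change of 15 tested monocyte and macrophage genes was 0.60 over GFP-TC and 0.53 over sECM only, and that of the 5 pan-leukocyte genes was 0.69 and 0.53. Without GFP-TC 1 the medians over GFP-TC were 0.21 and 0.37, without GFP-TC 3 that of the macrophage genes was 0.91, and without sECM only 2 that of the pan-leukocyte genes over sECM only was 0.34. The 15 interferon response genes had medians of 0.30 over GFP-TC (0.10 without GFP-TC 1 and 0.45 without GFP-TC 3) and 0.41 over sECM only (0.63 without sECM only 3), and summed to 3890 to 4653 TPM in ThTC, 2923 to 3887 TPM in GFP-TC and 2599 to 3997 TPM in sECM only. Of the macrophage, T cell, B cell and pan-leukocyte lists, 0 markers were at 0 in every library of any group. Each Ms4a gene was therefore set against Ptprc, which encodes the pan-leukocyte protein CD45, in the same library. Ptprc itself had 25.9, 26.9 and 33.96 TPM in ThTC libraries, 10.4, 26.7 and 35.7 TPM in GFP-TC libraries and 22.7, 16.4 and 30.0 TPM in sECM only libraries, with overlap of all groups.

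Relative to Ptprc, the overlap with GFP-TC depended on GFP-TC 1. Against GFP-TC with all libraries, 1 of the 7 ratios was higher without overlap, that of Ms4a4b, where 0.991% of tested genes were higher and 7.25% lower by their ratio. It was 0.862, 0.612 and 0.730 in ThTC libraries and 0.402, 0.551 and 0.585 in GFP-TC libraries. Without GFP-TC 1, 6 of the 7 ratios were higher without overlap, all but that of Ms4a4a, where 6.15% of tested genes were higher and 7.53% lower. Against sECM only, the ratios of 3 of the 7 were higher without overlap, those of Ms4a4c, Ms4a6b and Ms4a6c, where 0.709% of tested genes were higher and 24.3% lower by their ratio. The ratio of Ms4a6b was 1.58, 2.38 and 1.44 in ThTC libraries and 1.24, 1.07 and 0.918 in sECM only libraries. The ratio of Ms4a6c was 3.02, 3.95 and 2.88 in ThTC libraries and 2.45, 2.48 and 2.17 in sECM only libraries. Between GFP-TC and sECM only, 0 of the 7 ratios were without overlap, against 1.62% of tested genes higher and 0.47% lower. Without GFP-TC 1, 4 of these 7 were lower in GFP-TC, those of Ms4a4c, Ms4a6c, Ms4a6d and Ms4a7, and 0 were higher, where 10.9% of tested genes were lower and 3.92% higher. GFP-TC 1, with the lowest Ptprc level, had an Ms4a6c ratio of 3.64, against 2.12 and 2.09 in the other GFP-TC libraries. The counts without GFP-TC 1 were added after the values were seen. These ratios carry no test, and they depend on the choice of Ptprc, since no other pan-leukocyte gene was used as the divisor. Ptprc averaged 28.9 TPM in ThTC and 23.0 TPM in sECM only. The other pan-leukocyte genes were also higher in ThTC, with 149 and 93.2 TPM for Coro1a and 393 and 270 TPM for Laptm5. Cd52 averaged 641 and 450 TPM, and Cd53 49.8 and 36.0 TPM. The part that leukocyte content plays in the levels was not tested beyond the ratios to Ptprc.

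**Figure D3:**
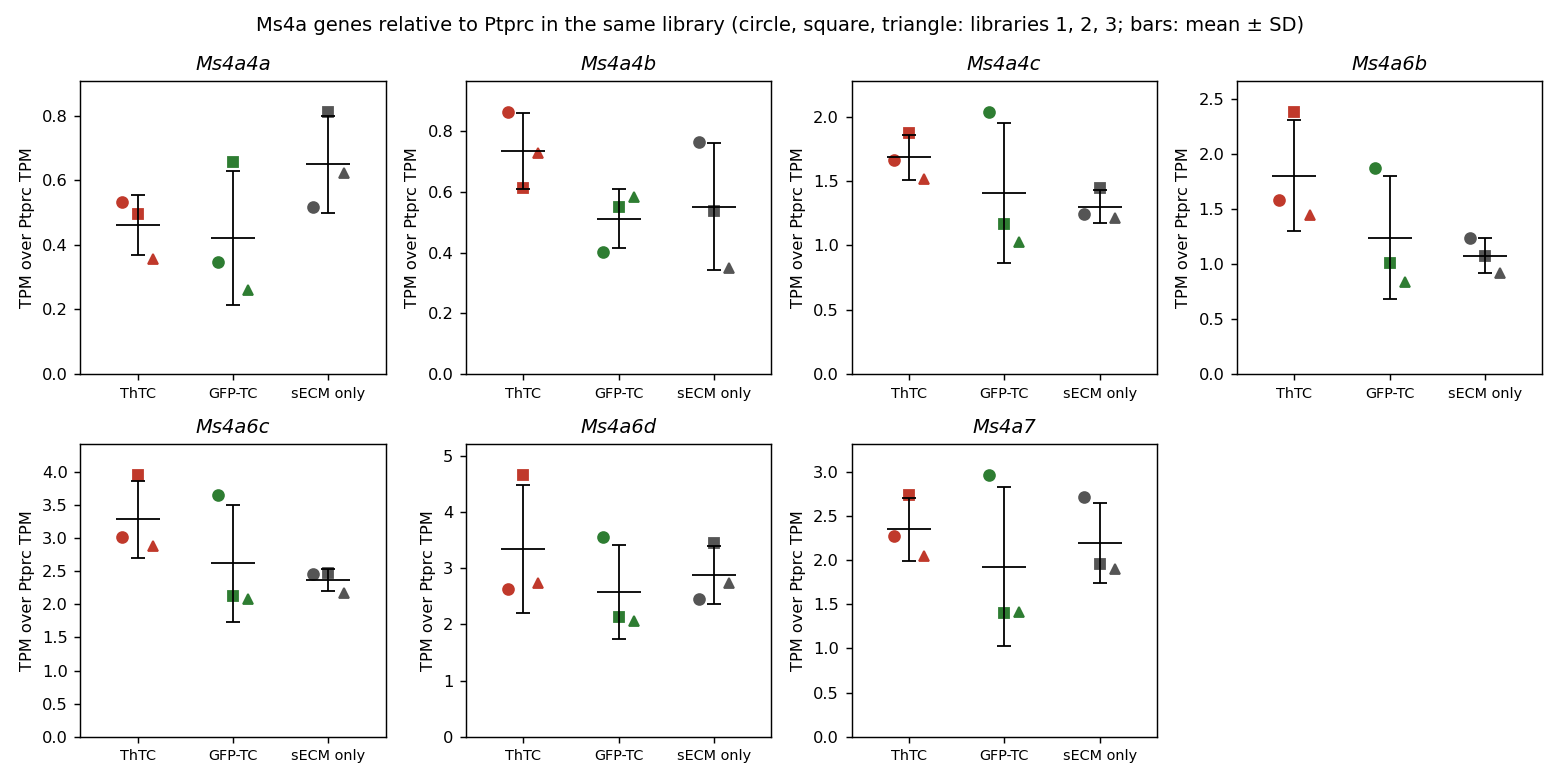
TPM of the 7 tested Ms4a genes divided by the TPM of Ptprc in the same library, with 1 point per library and bars for the mean ± SD (n = 3). GFP-TC 1 (circle) is high for Ms4a4c, Ms4a6b, Ms4a6c, Ms4a6d and Ms4a7, and the ThTC libraries of Ms4a4c, Ms4a6b and Ms4a6c lie above those of sECM only.

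The make-up of the family also differed by value. Ms4a6b took 12.6%, 14.2% and 12.3% of the summed TPM of the 8 genes in ThTC libraries, 12.6%, 11.2% and 10.1% in GFP-TC libraries and 10.9%, 9.10% and 9.25% in sECM only libraries. Ms4a6c took 24.02%, 23.6% and 24.6% in ThTC libraries, 24.5%, 23.4% and 25.2% in GFP-TC libraries and 21.5%, 21.0% and 21.9% in sECM only libraries. The share of Ms4a6c was thus higher in all 6 libraries of tissue given cells than in the 3 given sECM only. Ms4a4a took 4.22%, 2.97% and 3.03% in ThTC libraries, 2.32%, 7.26% and 3.15% in GFP-TC libraries and 4.53%, 6.87% and 6.26% in sECM only libraries. Its ThTC shares lay below those of sECM only, and the GFP-TC shares overlapped both. Shares of a sum move against each other, and these were not tested.

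Across the 9 libraries most of the tested genes varied together. Among the 21 pairs of the 7 genes, Pearson's r of log2(TPM + 1) ranged from 0.31 to 0.99 with a median of 0.80. These are descriptions over libraries that share groups, tissue content and a fixed total. The closest pair was Ms4a4c and Ms4a6c, with r = 0.99 and Spearman's rho = 0.98, and r = 0.97 without the 2 libraries farthest from the median, GFP-TC 1 and sECM only 2. Ms4a6b and Ms4a6c followed at r = 0.96 (rho = 0.93, and 0.93 for r without ThTC 2 and ThTC 3). The near copies Ms4a4b and Ms4a4c had r = 0.79 (rho = 0.80), and 0.43 without the 2 farthest libraries, GFP-TC 1 and sECM only 2.

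By Pearson's r, Ms4a4b and Ms4a4c were closest to different gene lists, but both were also close to other leukocyte lists. Against the mean log2 level of the 14 T cell genes, Ms4a4b had r = 0.98 and rho = 0.90, and r = 0.93 without GFP-TC 1 and sECM only 2. Ms4a4c had r = 0.84 with the T cell genes and r = 0.92 with the 15 interferon response genes. Without GFP-TC 1 these were 0.77 and 0.896, against 0.903 with the macrophage and 0.892 with the NK cell genes. By rho over all 9 libraries, the T cell genes came before the interferon response genes for Ms4a4c, at 0.93 and 0.87. Ms4a4b also had r = 0.93 with the pan-leukocyte and 0.92 with the macrophage genes, and Ms4a4c had 0.89 with each. The genes most like Ms4a4b, by r over all tested genes averaging 5 TPM or more, were Flt3l, a growth factor for dendritic cells, the chemokine gene Cxcl16 and the T cell adhesion gene Cd2, each at r = 0.98. Those most like Ms4a4c were Milr1, an inhibitory receptor first described in mast cells, at 0.98, and Phf11d and the interferon-induced gene Xaf1 at 0.97.

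The Ms4a6 genes and Ms4a7 resembled several leukocyte lists about equally. Ms4a6c had r = 0.90 with the monocyte and macrophage genes, or 0.94 without GFP-TC 1, and 0.91 with each of the NK cell, pan-leukocyte and interferon response genes. Ms4a6b had r = 0.85 with the NK cell, 0.81 with the interferon response, 0.79 with the macrophage and 0.78 with the T cell genes. Ms4a6d had r = 0.87 with the macrophage and 0.85 with the NK cell genes. Ms4a7 had r = 0.87 with the NK cell, 0.83 with the T cell, 0.82 with the macrophage and 0.75 with the interferon response genes. The genes most like Ms4a6b were Psmb9 at 0.98, a subunit of the immunoproteasome, and Rab32 and the proteasome activator gene Psme1 at 0.97. Those most like Ms4a6c were Tm6sf1, Milr1 and the interferon-induced gene Ifi35 at 0.98. Those most like Ms4a6d were Cr1l at 0.97, Scimp at 0.96 and the pan-leukocyte gene Cd53 at 0.95. Those most like Ms4a7 were Tmbim4 and Sirpb1b at 0.95 and the myeloid receptor gene Clec12a at 0.94.

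**Figure D4:**
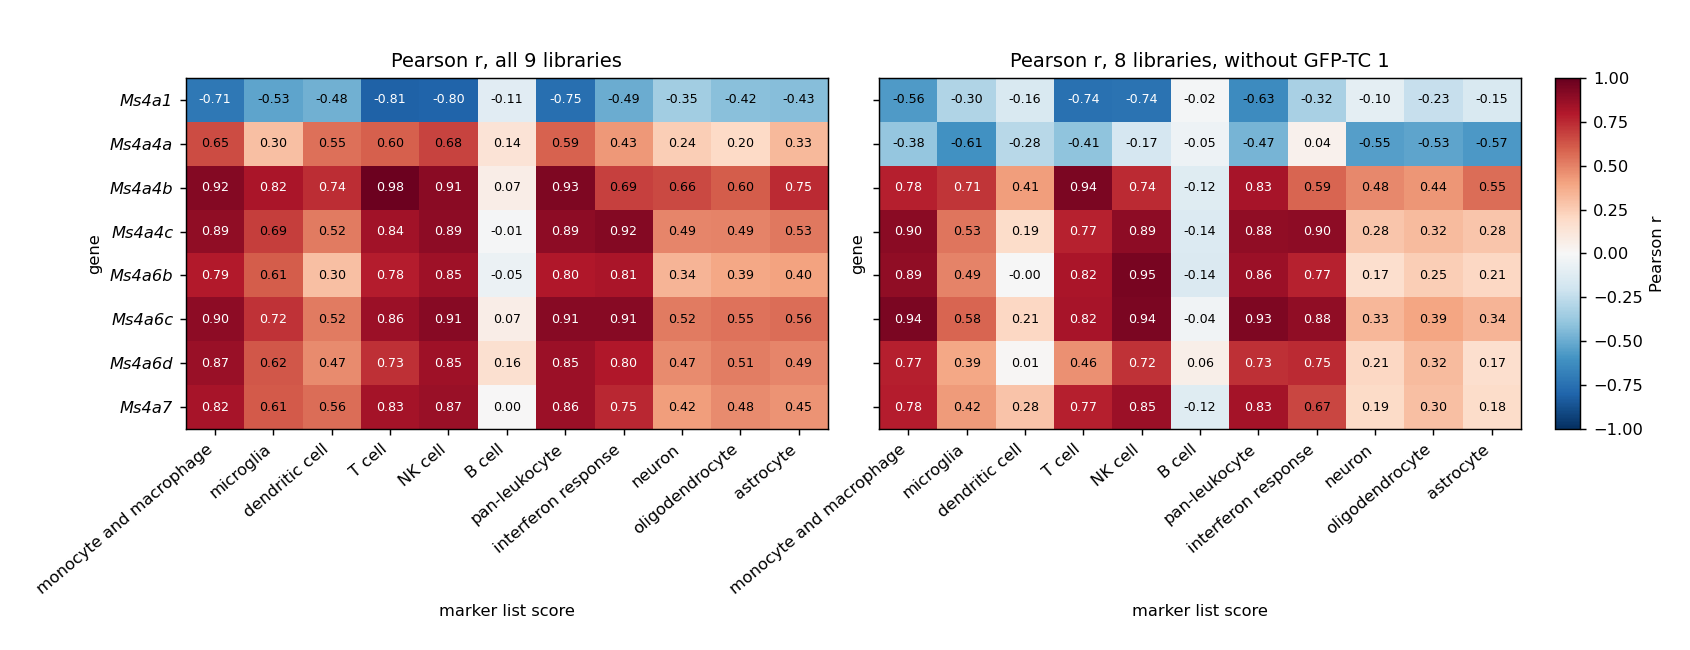
Pearson's r between log2(TPM + 1) of each of the 8 Ms4a genes and the mean log2 level of 11 marker lists, over all 9 libraries (left) and over the 8 without GFP-TC 1 (right). Ms4a4a is positive with the macrophage list at 0.65 on the left and negative at -0.38 on the right, while Ms4a4b keeps 0.94 with the T cell list.

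Ms4a4a stood outside this pattern. Its r with the other 6 tested genes was 0.31 to 0.56 in all 9 libraries, and between -0.54 and -0.05 without GFP-TC 1, the library in which it was lowest. With the monocyte and macrophage genes r was 0.65 (rho = 0.00), and -0.38 without GFP-TC 1. The genes most like Ms4a4a were the pseudogene Nutf2-ps2 at r = 0.98, or 0.94 without GFP-TC 1, Anpep, a myeloid surface peptidase, at 0.94 or 0.66, and the endocytic adaptor gene Dab2 at 0.92 or 0.54. Ms4a1 had r between -0.87 and -0.33 with the other 7. The -0.33 was with Ms4a4a (rho = 0.0084), and r was 0.40 for that pair without GFP-TC 1. Ms4a1 had r = -0.11 with the B cell genes at levels under 1 TPM. The genes most like Ms4a1 were Cdc5l, Yeats4 and Hmgn3 at 0.94.

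**Figure D5:**
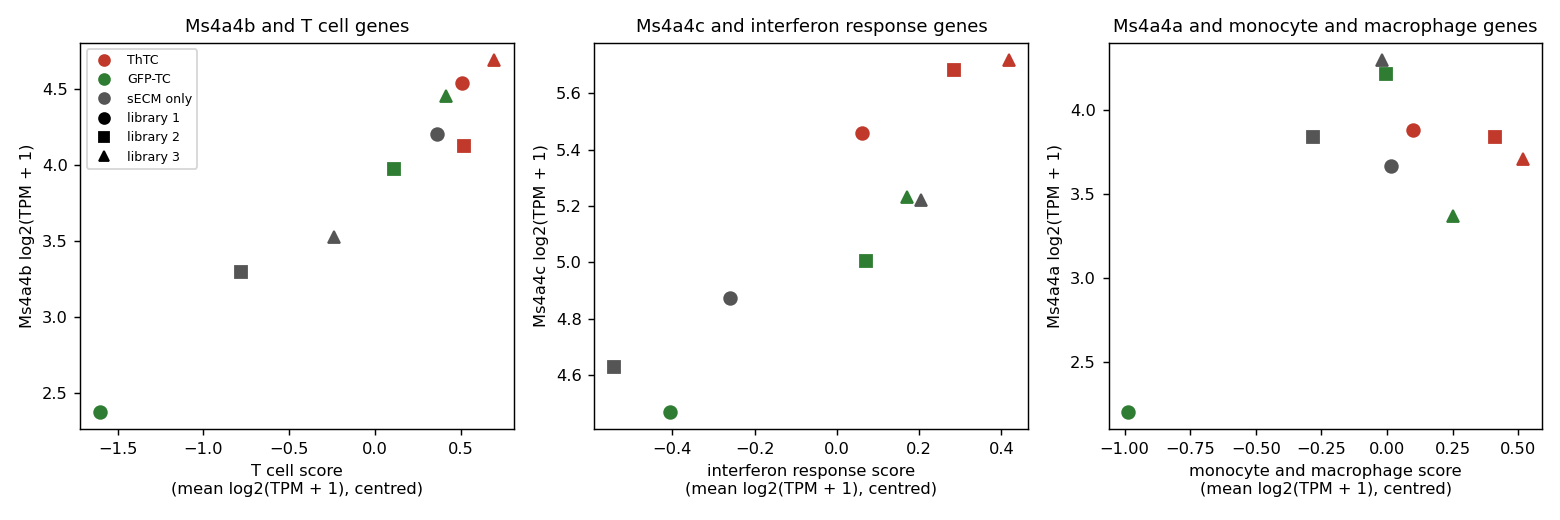
Log2(TPM + 1) of Ms4a4b, Ms4a4c and Ms4a4a against the mean log2 level of T cell, interferon response and monocyte and macrophage genes, each centred on its mean over 9 libraries, with colour for the group and shape for the library number. The point of GFP-TC 1 (green circle) is far to the lower left for Ms4a4b and Ms4a4a, and the other 8 points of Ms4a4a show no upward trend.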

How the data were processed

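Bulk RNA-seq libraries, 3 in each of 3 treatment groups, were made from total RNA and sequenced to 4.47 Gb of bases each, per the labels. The deposited files held TPM per gene, rounded to 2 decimals, and library totals were equal within 0.74 TPM of their set sum, so read depth is not kept and no counting intervals were given. HISAT, GRCm38.p6 and mm10 are named in the submitters' processing notes, and the counting tool and annotation are not given in the sources used here. No library repeated another: at most 0.42% of tested genes had equal values in 2 libraries of a group.

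Genes reaching 1 TPM in 3 or more libraries were tested on log2(TPM + 1) with limma 3.58.1 (intensity trend, all 9 libraries together) in R 4.3.3, with Benjamini-Hochberg adjustment at 0.05, after tests on simulated data. A fold change on this scale understates that of low genes. Ms4a1 was compared by exact two-sided permutation. Alternatives were another pseudocount, other filters, median-of-ratios scaling, fits of 2 groups, replicate blocks, no trend, a neuron covariate and leaving out libraries. Genes were named as the 8 members, listed relatives, partners and markers, and the 3 genes most like each member by Pearson's r. Ms4a12, outside the listed relatives, was named after its values were seen. The members and lists were chosen with earlier results of these data known.

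Same-numbered ThTC and GFP-TC libraries deviated together from their group means (correlations 0.74, 0.12 and 0.87). The main fit used group means without pairing. Only the alternatives with a replicate block treated these libraries as pairs, from these values alone. The correlations gave no ground for pairing the sECM only libraries (-0.55, 0.28 and -0.205 with ThTC, -0.53, -0.14 and -0.19 with GFP-TC). Replicate blocks were nevertheless also run with the sECM only libraries as alternatives.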

Additional observations from a re-analysis of the deposited data

How the results depend on the processing

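With every alternative run for them, 0 of the 7 tested Ms4a genes were called in any comparison. The number of genes called over the whole table changed in a few settings, and the cause was not tested. For ThTC against GFP-TC it was 8 with the replicate block in 6 libraries. For ThTC against sECM only it was 2 with a neuron covariate, and between 0 and 1 with libraries left out in turn (1 without sECM only 1). For GFP-TC against sECM only it was 1 with the replicate block in all 9 libraries, 1 with the neuron covariate, and between 0 and 1 with libraries left out (1 without sECM only 1 or 2). The replicate block changed no other call.

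The direction turned for these log2 fold changes only. For ThTC against GFP-TC, Ms4a4a was at -0.016 without GFP-TC 1 and ThTC 1 together, an alternative chosen after seeing the data. With libraries left out in turn it ranged from 0.02 to 1.03. For ThTC against sECM only, Ms4a4a ranged from -0.26 to 0.057 with libraries left out. For GFP-TC against sECM only, median-of-ratios scaling gave -0.029 for Ms4a6b and -0.058 for Ms4a6c, and the neuron covariate gave -0.028 for Ms4a6c. With libraries left out, the ranges were -0.50 to 0.54 for Ms4a4b, -0.17 to 0.21 for Ms4a4c, -0.15 to 0.24 for Ms4a6b, -0.19 to 0.29 for Ms4a6c and -0.47 to 0.018 for Ms4a6d, and leaving out GFP-TC 1 and ThTC 1 together gave 0.54, 0.21 and 0.018 for Ms4a4b, Ms4a4c and Ms4a6d. Without GFP-TC 1, the number of Ptprc ratios without overlap was 6 of 7 in place of 1 (higher in ThTC than in GFP-TC) and 4 of 7 in place of 0 (lower in GFP-TC than in sECM only), counts added after seeing the data. Median-of-ratios scaling moved the median of all tested genes from -0.10 to 0.02 for ThTC against GFP-TC, and that of the 7 genes to 0.90. With 3 libraries a group and no read depth, the size of difference that can be detected is limited.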
